A study of Arabidopsis thaliana with 18 samples.

Results

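A set of 85 probe sets, of 22746 measured on Affymetrix arrays of Arabidopsis thaliana roots, lay below the wild type in 4 lines with changes in the nitrate transporter NRT1.1 and nearer to the wild type in the line T101D. A probe set is a group of short probes that read 1 transcript or a few similar ones. The members were chosen on their group means of log2(intensity + 16). Each of chl1-5, chl1-9, chl1-12 and T101A had to lie at least 0.6 below col, and T101D minus col had to be smaller in size than 50% of the mean of those 4 differences, or positive. Of 133 probe sets that lay low in all 4 lines, 88 met the condition on T101D, and 3 of these were left out by name, the berberine-bridge-like genes AT1G26380, AT1G26390 and AT1G26410. The differences from col and the position of T101D therefore describe the members and carry no test.

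The compared genotypes were chl1-5, a deletion mutant of NRT1.1, chl1-9, which carries a point mutation, chl1-12, a further allele described by its name only, T101A and T101D, in which a substitution at threonine T101 blocks or mimics phosphorylation at that position, and col, the Columbia wild type. Every genotype had 3 arrays of total root RNA, all from plants kept in vitro for 8 days with 10 mM NH4NO3 as the nitrogen supply. The labels do not say which background carries the T101 forms, how many transgenic or mutant lines they stand for, or whether the replicates were separate cultures. Test p-values then measure the spread between these samples, which may be technical.

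NRT1.1, also called CHL1 or NPF6.3, carries nitrate across the plasma membrane of root cells and senses it, and phosphorylation of T101 sets its affinity and its signalling. Nitrate supply sets the transcription of many root genes, among them genes of nitrate uptake and assimilation and their regulators. Plant roots also hold receptors, calcium-binding proteins, secreted peptides, cell wall proteins and detoxifying enzymes that are best known from responses to microbes and wounding. Members from both kinds of gene are described below by what each is known to do.

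The platform annotation gave 1 gene for 40 members, several genes for 3 and no gene for 42. Single-gene names were thus available for 47.1% of the members, against 59.4% of all probe sets tested. Array medians lay between 184 and 197, and Pearson correlations between arrays, across probe sets, ranged from 0.978 to 0.989 within genotypes and from 0.975 to 0.989 between them. Of the cell type markers looked up, 1 of 11 for green shoot, 6 of 7 for root hairs and 1 of 1 for cortex had a named probe set, and 0 of those for endodermis, xylem, phloem, root cap, stele and meristem. The 6 root hair markers summed to intensities of 8151 to 9779 in chl1-5, 6256 to 8155 in chl1-9, 7605 to 8644 in chl1-12 and 8697 to 9770 in T101A, with 7746 to 8646 in T101D, against 4828 to 5999.6 in col. Of these 6 markers limma called 4 against col in chl1-5, 2 in chl1-9, 2 in chl1-12 and 5 in T101A, with 1 in T101D. Over all probe sets the shares called in either direction were 2.18%, 3.39%, 1.5%, 2.23% and 0.255% in the same order. The green shoot marker RCA, rubisco activase, lay at 574 to 888 in T101D and at 985 to 1708 across the 4 lines, against 1316 to 1971 in col, and it was not called in any line. The part of these differences in the results below was not tested. In RNA from whole roots, fewer cells of a type and less RNA per cell cannot be told apart.

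The members lay furthest below col in chl1-9 and least far in T101A among the 4 lines. Their median difference from col was -1.24 in chl1-5, -1.60 in chl1-9, -1.36 in chl1-12 and -1.07 in T101A, with -0.32 in T101D on the log2 scale, which is 2.37-fold, 3.03-fold, 2.56-fold, 2.1-fold and 1.25-fold lower. The median over all 22746 probe sets lay between -0.03 and -0.00048 in each of these comparisons. At least 2-fold lower than col were 61 members in chl1-5, 71 in chl1-9, 65 in chl1-12 and 45 in T101A, with 4 in T101D. Of the 4 lines, chl1-9 had the lowest mean in 56 members, chl1-12 in 16, chl1-5 in 9 and T101A in 4.

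In T101D the members were close to col without reaching it as a whole. The T101D difference had a median of 24.6% of the mean difference of the 4 lines, with quartiles of 14.7% and 36.9% and a range of -23.6% to 49.4%. The mean of T101D lay below that of col in 79 members and above it in 6. The other 45 probe sets that lay low in all 4 lines were set apart by their T101D value, so the contrast with the members there follows from the rule. They had a median of -0.77 in T101D, beside a median of -0.99 for the mean of the 4 lines, where the members had -1.31. Just inside the distance from col were unnamed probe sets at -0.60 in T101A and -0.62 in chl1-5. Just outside were AT4G16260 and a probe set shared by AT1G05660 and AT1G05650, both at -0.59 in T101A. Just inside the limit on T101D were an unnamed probe set at 49.4% and AT1G13310 at 48.8%, and just outside were AT5G19110 at 51.0% and AT5G26200 at 51.7%.

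**Figure D1:**
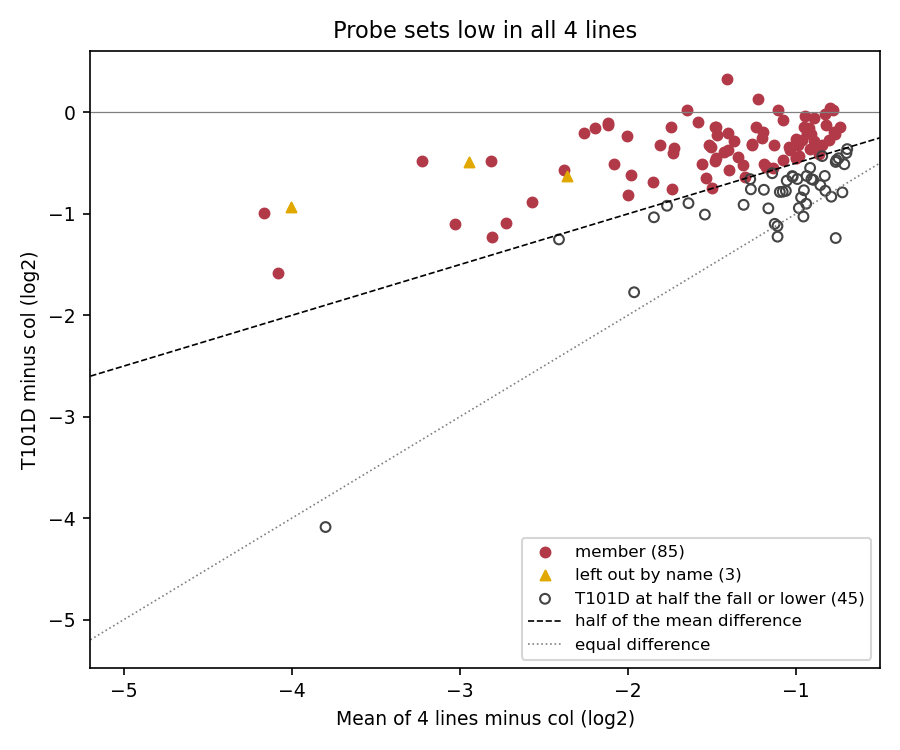
Each point is 1 of the 133 probe sets that lay at least 0.6 below col in all 4 lines, with the mean difference of the 4 lines from col (log2) on the horizontal axis and the difference of T101D from col (log2) on the vertical axis. The 85 members and the 3 probe sets left out by name lie above the dashed line, which marks 50% of the mean difference, and the other 45 lie on or below it.

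All 12 arrays of the 4 lines lay below all 3 arrays of col in 65 of the 85 members, where 1.88% of all probe sets showed that order. All 12 lay below all 3 arrays of T101D in 42 members, against 0.739% of all probe sets. The 3 T101D arrays lay below the 3 col arrays in 15 members, or 17.6%, where 9.63% of all probe sets did. The choice of members used these same values, so nothing is read from the shares.

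The arrays of a genotype differed in how low the members were. The median of the members relative to the col mean was -1.17, -1.28 and -1.36 in the chl1-5 arrays, -1.66, -1.58 and -1.48 in chl1-9, -1.12, -1.48 and -1.35 in chl1-12, -1.05, -0.90 and -1.34 in T101A, and -0.18, -0.16 and -0.64 in T101D, against 0.01, 0.11 and -0.08 in col. T101D replicate 3 stood lower than the other T101D arrays and was the lowest of the 3 in 57 members, against 31.4% of all probe sets. Its GAPDH control ratio (5' over 3' probe set) was 0.797, where the other T101D arrays had 0.941 and 0.942. The ratio lay at 0.806 to 0.923 in chl1-5, 0.729 to 0.828 in chl1-9, 0.788 to 0.981 in chl1-12 and 0.845 to 0.944 in T101A, against 0.740 to 0.797 in col, so every chl1-5 and T101A array lay above every col array. Its part in the results was not tested. Without that array the member median in T101D was -0.19, and it was -0.40 without replicate 1 and -0.39 without replicate 2. Replicate 2 was the highest of its genotype in 46 members in T101A and 44 in T101D, against 42 in col. Of all probe sets, 31.9%, 29.4% and 29.3% were highest in these arrays. Replicate 3 was the lowest in 37 members in chl1-5 and 44 in T101A, against 42 in col. Of all probe sets, 31.1%, 29.5% and 33.8% were lowest there. The other alleles ran otherwise, with replicate 3 the highest in 44 members in chl1-9, against 37.0% of all probe sets. In chl1-12 replicate 1 was the highest in 45 members and replicate 2 the lowest in 50, against 30.5% and 34.4% of all probe sets. The median SD of a member between arrays of 1 genotype lay between 0.27 and 0.40 on the log2 scale, where the median over all probe sets lay between 0.14 and 0.19.

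**Figure D2:**
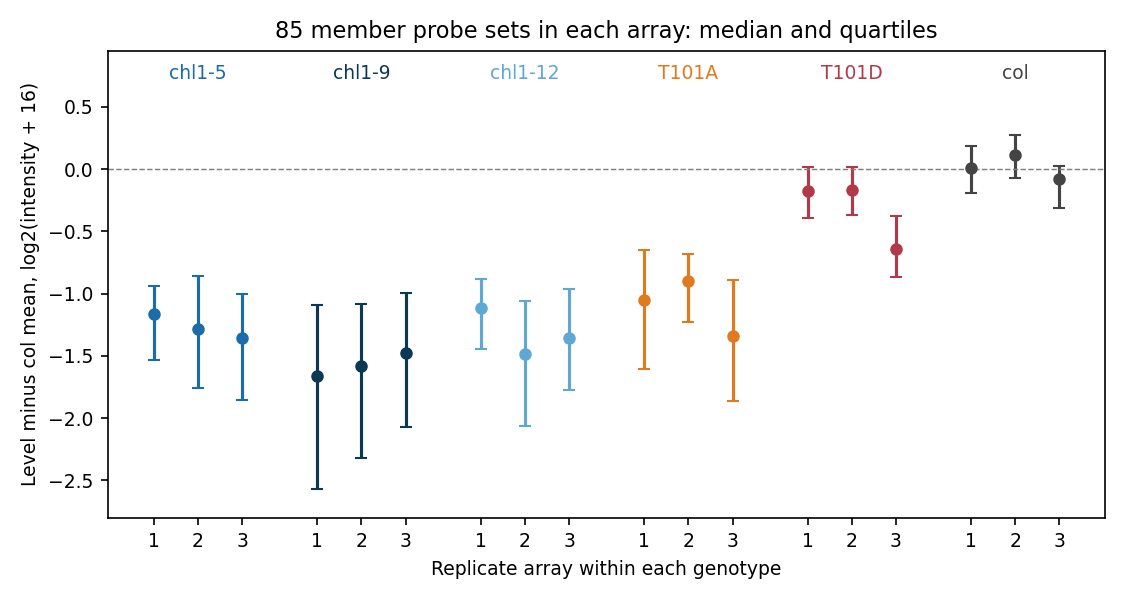
For each of the 18 arrays the point shows the median of the 85 members minus their col mean on the log2(intensity + 16) scale, and the bars run from the lower to the upper quartile of the members. The 12 arrays of chl1-5, chl1-9, chl1-12 and T101A have medians between -1.66 and -0.90, and T101D replicate 3 at -0.64 lies below the other T101D arrays at -0.18 and -0.16.

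Because the rule used all arrays, it was also applied to arrays of 2 replicate numbers and read in the arrays of the number left out. With replicate 1 left out, 76 probe sets were chosen, and 60 of them (78.9%) lay below col in all 4 lines in the replicate 1 arrays, against 26.6% of all probe sets. With replicate 2 left out, 72 of 82 (87.8%) did so, against 24.7% of all probe sets, and with replicate 3 left out, 91 of 108 (84.3%), against 21.7%. The whole rule was met again in the arrays left out by 40 of 76 (52.6%), 48 of 82 (58.5%) and 34 of 108 (31.5%), where 0.629%, 0.651% and 0.365% of all probe sets met it. The low level in the 4 lines thus recurred in arrays not used for the choice in about the same share each time, while the whole rule recurred least in the replicate 3 arrays. There T101D lay at a median of -0.48, against -0.12 in the replicate 1 arrays and -0.27 in the replicate 2 arrays. The labels do not say whether replicates were separate cultures, so the recurrence may be technical. In each reading the 4 lines also share 1 col array. Of the probe sets chosen, 55 of 76, 68 of 82 and 73 of 108 were members. The median SD between arrays was larger for the members than for all probe sets. The shares of all probe sets are therefore not a matched baseline.

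Several members were dim. The col mean intensity ranged from 22.7 to 10337 with a median of 242, and 24 members had a col mean under 100. Intensities under 16 hold much background, and 24 members had a mean under 16 in at least 1 of the 4 lines, while 0 had one in T101D or col. For those members the difference on the log2(intensity + 16) scale understates the change.

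The named members included 8 genes of recognition and signalling, 12 of secreted and cell wall proteins, 8 metabolic enzymes, 2 nitrate-linked genes and 10 others. These groups were drawn up after the members were known and serve only to order the account. In each group the median was lowest in chl1-9, except among the nitrate-linked genes, where it was lowest in chl1-12.

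**Figure D3:**
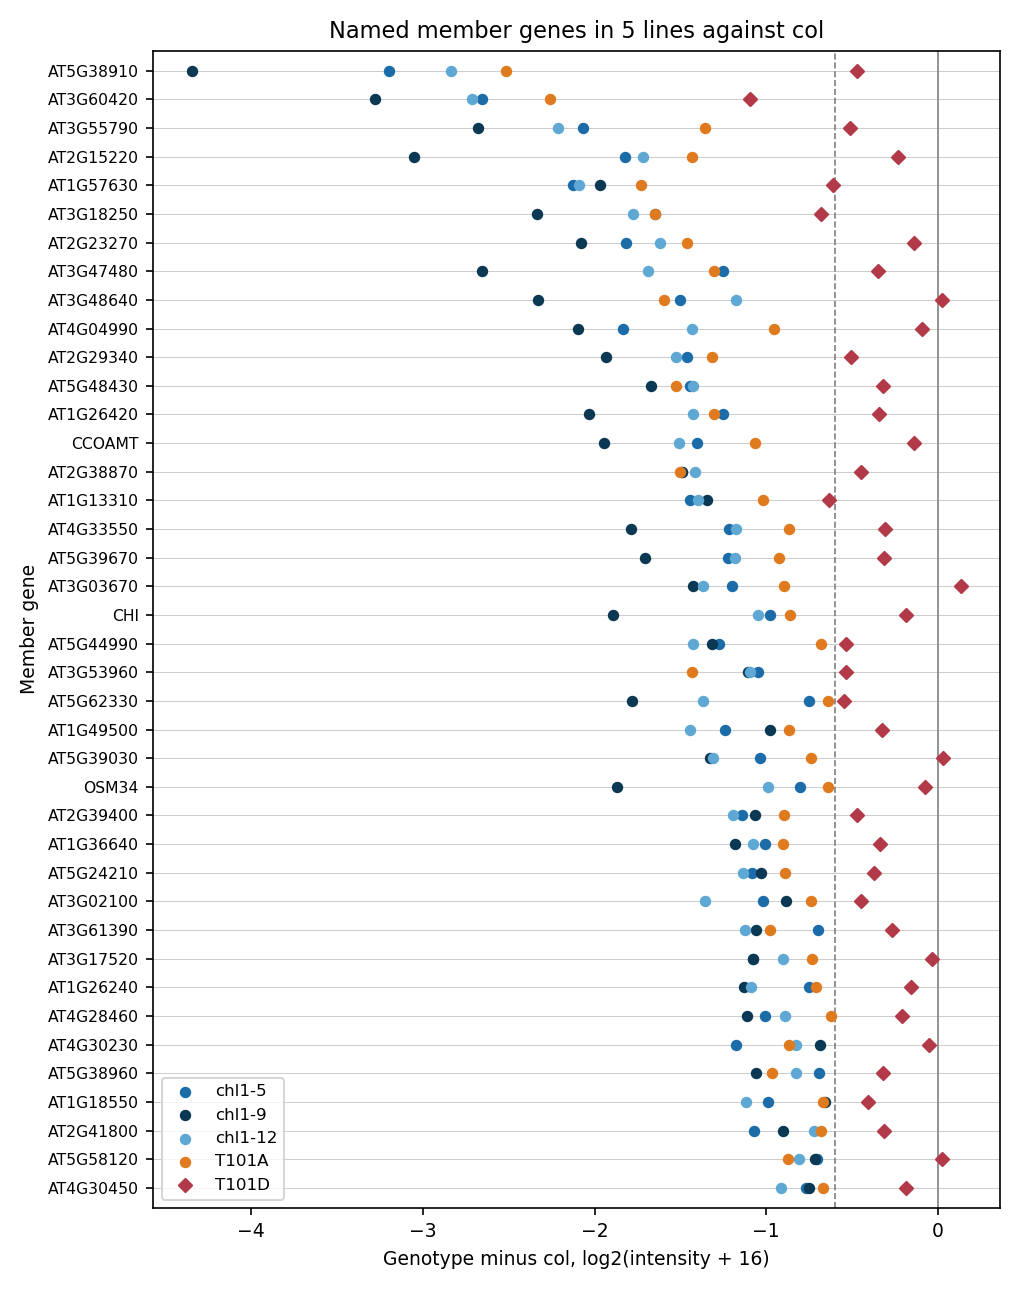
Each row is 1 of the 40 member genes with a single-gene probe set, ordered by the mean difference of the 4 lines, and the points give the difference of each line from col on the log2(intensity + 16) scale, with T101D as diamonds and the dashed line at -0.6. The circles of chl1-5, chl1-9, chl1-12 and T101A all lie left of the dashed line, and the T101D diamonds lie nearer to 0.

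The 8 genes of recognition and signalling had median differences from col of -1.13 in chl1-5, -1.52 in chl1-9, -1.25 in chl1-12 and -0.95 in T101A, with -0.24 in T101D. In 7 of them all 12 arrays of the 4 lines lay below the 3 of col, where 1.88% of all probe sets and 65 of the 85 members did. Such counts use the values that the rule used. The group held a pair of genes with TIR domains, the signalling domain of many plant immune receptors. AT1G57630 gave intensities of 3.86, 2.45 and 4.34 in chl1-5, 11.0, 2.05 and 5.02 in chl1-9, 4.47, 4.56 and 3.11 in chl1-12, 4.52, 27.8 and 2.81 in T101A, and 83.5, 60.7 and 6.58 in T101D, against 67.8, 65.9 and 74.0 in col. It was under 16 in every array of the 4 lines but T101A replicate 2 and in T101D replicate 3, while the other T101D arrays were close to col, and its mean over the 4 lines lay -1.98 from col on the log2 scale.

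AT5G58120 encodes a full immune receptor with TIR, nucleotide-binding and leucine-rich repeat domains. Its intensities were 35.2, 26.4 and 41.6 in chl1-5, 37.4, 40.1 and 24.7 in chl1-9, 28.6, 21.6 and 43.4 in chl1-12, 46.7, 28.8 and 15.2 in T101A, and 67.8, 71.6 and 61.3 in T101D, against 47.98, 76.5 and 75.1 in col. Every array of the 4 lines lay below every array of T101D and of col, with a mean difference of -0.78 in the 4 lines and 0.02 in T101D. AT5G39030, a receptor-like kinase of the family of FERONIA, which senses cell wall state, showed 33.7, 4.10 and 15.6 in chl1-5, 5.58, 5.73 and 20.8 in chl1-9, 8.45, 6.10 and 17.0 in chl1-12, 26.9, 19.5 and 22.3 in T101A, and 49.9, 49.8 and 50.9 in T101D, against 49.6, 47.95 and 49.1 in col. The T101D and col arrays of AT5G39030 nearly coincided, and the 4 lines lay below both with a mean difference of -1.10.

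The pair of EF-hand genes encodes calmodulin-like proteins that bind calcium. AT3G47480 had intensities of 72.2, 39.8 and 41.9 in chl1-5, 17.2, 3.36 and 7.83 in chl1-9, 42.5, 34.2 and 23.3 in chl1-12, 44.8, 67.2 and 34.8 in T101A, and 93.6, 192 and 65.6 in T101D, against 153, 131 and 139 in col. Its mean difference was -1.72 in the 4 lines, its chl1-9 arrays were the lowest, at -2.66 from col, and T101D overlapped col. T101D replicate 3 lay below chl1-5 replicate 1 and T101A replicate 2. AT5G39670 had 93.4, 103 and 69.2 in chl1-5, 92.1, 42.8 and 47.8 in chl1-9, 117, 86.7 and 72.5 in chl1-12, 100.7, 196 and 67.9 in T101A, and 203, 217 and 127 in T101D, against 233, 233 and 211 in col. All 12 arrays of the 4 lines lay below the col arrays for this gene too, with a mean difference of -1.26, and T101D lay at -0.32. T101D replicate 3 lay below T101A replicate 2 here as well.

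Of 3 measured genes of the PIP family, precursors of small secreted peptides that are induced by pathogens and amplify immune responses, 2 were members. AT2G23270 showed 93.4, 58.3 and 70.8 in chl1-5, 74.6, 57.3 and 45.5 in chl1-9, 108, 80.9 and 73.1 in chl1-12, 72.1, 199 and 62.5 in T101A, and 277, 365 and 192 in T101D, against 410.4, 272 and 237 in col. The 12 arrays of the 4 lines lay below col with a mean difference of -1.75, and T101D overlapped col at -0.14. T101A replicate 2 was the highest of the 12 and lay above T101D replicate 3. AT4G28460 showed 117, 147 and 108 in chl1-5, 71.8, 127 and 156 in chl1-9, 124, 116 and 168 in chl1-12, 126, 159 and 226 in T101A, and 213, 261 and 206 in T101D, against 339, 255 and 211 in col. The groups of AT4G28460 overlapped, and its mean difference in the 4 lines was -0.91. The U-box gene AT3G61390, of a family of ubiquitin ligases, had a mean difference of -0.96 in the 4 lines and -0.27 in T101D.

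The 12 genes of secreted and cell wall proteins had medians of -1.14 in chl1-5, -1.58 in chl1-9, -1.13 in chl1-12 and -0.88 in T101A, with -0.27 in T101D. In 10 of them all 12 arrays of the 4 lines lay below col, against 1.88% of all probe sets. In 7 they also lay below all T101D arrays, against 0.739% of all probe sets. The largest mean difference of a named member, -3.22, was that of AT5G38910, a germin-like protein of the cell wall family with oxidase and superoxide dismutase activities. AT5G38910 gave 263, 265 and 121 in chl1-5, 64.6, 91.2 and 97.6 in chl1-9, 393, 204 and 234 in chl1-12, 202, 817 and 227 in T101A, and 1672, 1869 and 949 in T101D, against 1595, 3337 and 1509 in col. Its chl1-9 arrays were 20.3-fold below col on the offset scale, and T101A replicate 2 was the highest array of the 4 lines, while T101D replicates 1 and 2 lay within the range of col and replicate 3 below it.

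A second germin-like gene, AT5G38960, lies on the same chromosome with 4 protein-coding genes between it and AT5G38910. Its intensities were 11.7, 26.0 and 10.4 in chl1-5, 7.82, 2.0 and 17.0 in chl1-9, 17.5, 23.7 and 1.44 in chl1-12, 14.1, 2.13 and 15.8 in T101A, and 27.1, 14.8 and 33.8 in T101D, against 36.9, 45.1 and 23.9 in col. The difference of AT5G38960 was smaller, at -0.89, and its groups overlapped. With 7 further protein-coding genes between, AT5G38960 is followed by the receptor-like kinase AT5G39030 described above, so 3 members lie near each other there.

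AT2G15220 belongs to the plant basic secretory proteins, which are exported to the cell wall and known from defence. Its probe set is of a kind that can match several similar transcripts. Intensities were 782, 784 and 724 in chl1-5, 237, 277 and 475 in chl1-9, 874, 685 and 925 in chl1-12, 1015, 1158 and 855 in T101A, and 2643, 2598 and 1834 in T101D, against 2856, 3425 and 2088 in col. The 4 lines lay below both T101D and col in every array, with a mean difference of -2.01, and chl1-9 lay below the other lines in every array. AT5G48430, of the aspartyl protease family, showed 191, 195 and 145 in chl1-5, 84.1, 188 and 196 in chl1-9, 187, 176 and 169.9 in chl1-12, 159.6, 289 and 93.4 in T101A, and 618, 459 and 223 in T101D, against 499.5, 479.6 and 533 in col. Here all 12 arrays of the 4 lines lay below col with a mean difference of -1.52, and T101D replicate 3 lay among the values of the 4 lines.

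OSM34, an osmotin of the thaumatin-like family of defence proteins, averaged 4915 ± 949 in chl1-5, 2504 ± 1148 in chl1-9, 4259 ± 249.6 in chl1-12 and 5494 ± 963 in T101A, with 8076 ± 1089.7 in T101D, against 8499 ± 859.6 in col (SD, n = 3 each). The chitinase gene CHI, whose family cuts the chitin of fungal walls, had a mean difference of -1.20 in the 4 lines, where OSM34 had -1.07, and the potato inhibitor type protease inhibitor AT2G38870 had -1.47. In T101D these 3 genes lay at -0.08, -0.19 and -0.45. The lipid-transfer-like gene AT4G33550 had a mean difference of -1.26, the class III peroxidase AT3G03670 -1.22, the extensin-like gene AT1G26240 -0.92, the DUF642 cell wall gene AT2G41800 -0.85 and the glycine-rich gene AT4G30450 -0.77. AT3G03670 was the member of this group with T101D highest relative to col, at 0.14.

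**Figure D4:**
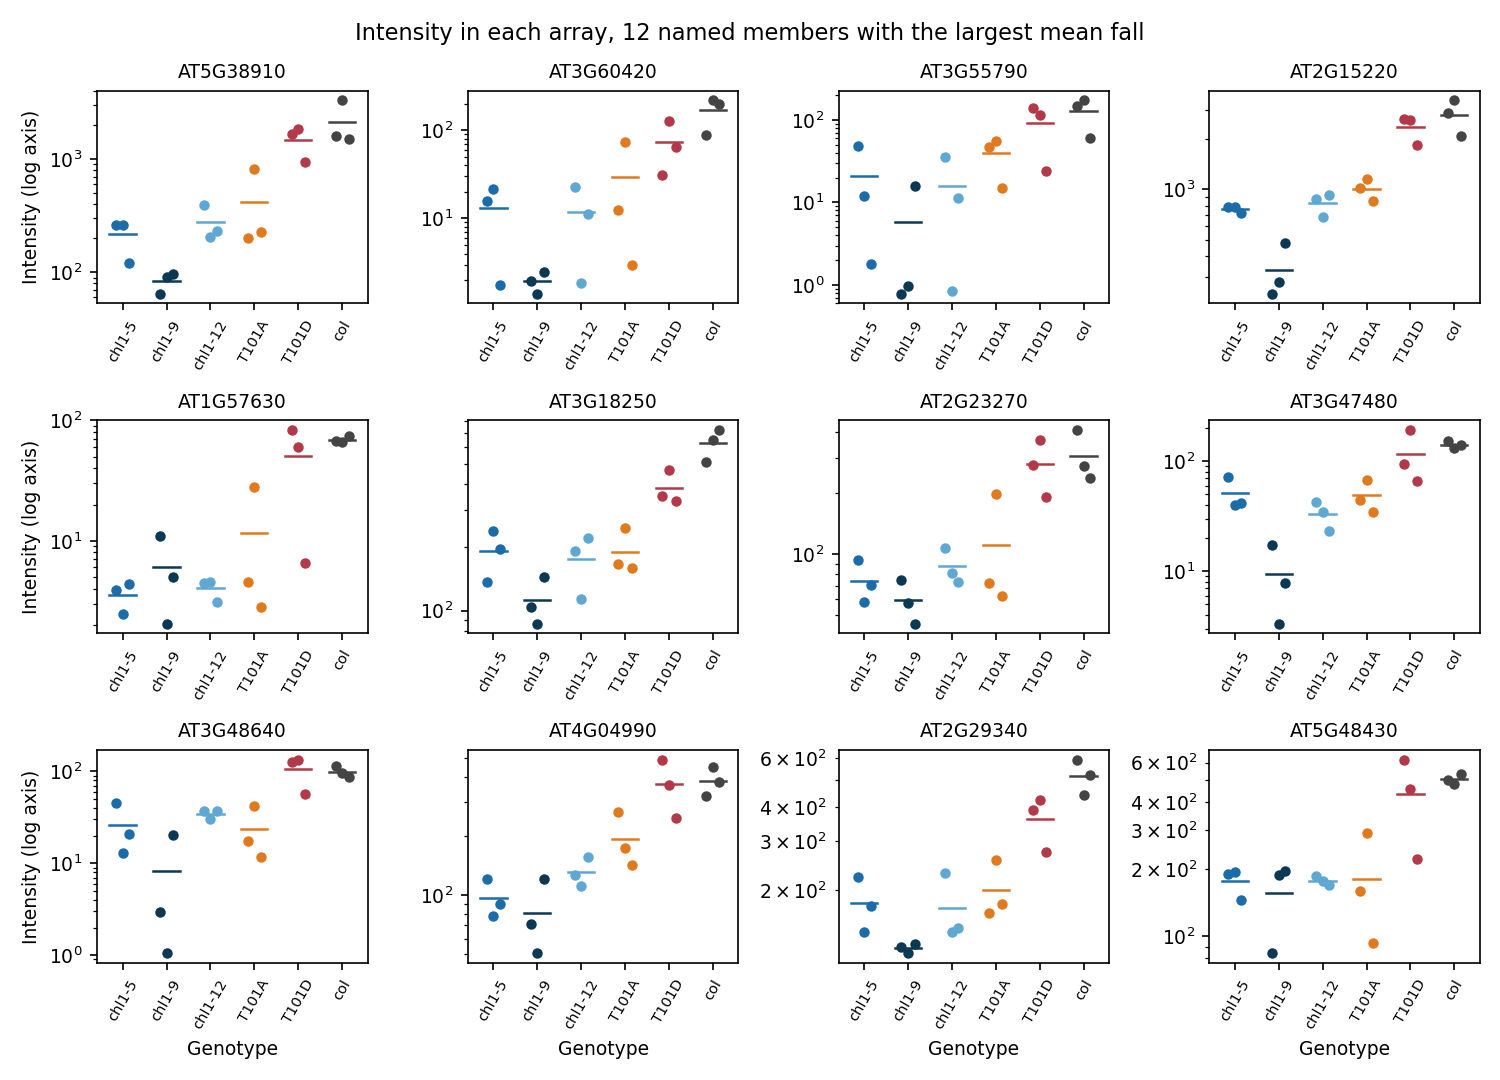
Each panel shows 1 of the 12 named members with the largest mean difference, with intensity on a log axis, 1 point per array and a line at the mean of the 3 arrays of a genotype. In each panel the means of chl1-5, chl1-9, chl1-12 and T101A lie below those of T101D and col.

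The 8 metabolic enzymes had medians of -1.26 in chl1-5, -1.62 in chl1-9, -1.43 in chl1-12 and -0.98 in T101A, with -0.46 in T101D, and their T101D difference had a median of 37.9% of the mean difference of the 4 lines. In 5 of the 8 all 12 arrays of the 4 lines lay below col, against 1.88% of all probe sets. AT3G60420, of the phosphoglycerate mutase family, showed 15.6, 21.7 and 1.78 in chl1-5, 1.96, 1.40 and 2.46 in chl1-9, 22.5, 1.84 and 11.3 in chl1-12, 12.5, 73.1 and 2.94 in T101A, and 30.8, 127 and 64.9 in T101D, against 89.0, 219 and 198 in col. Several arrays of the 4 lines were under 16, all 12 lay below col with a mean difference of -2.73, and the T101D mean lay between, at -1.09. T101D replicates 1 and 3 lay below T101A replicate 2. AT2G29340, a short-chain dehydrogenase of the tropinone reductase-like family, had 223, 141 and 175 in chl1-5, 124, 118 and 127 in chl1-9, 230.0, 141 and 145 in chl1-12, 165, 258 and 179 in T101A, and 389, 424 and 276 in T101D, against 593, 441 and 521 in col. For AT2G29340 the 12 arrays of the 4 lines lay below all of T101D, and the T101D arrays lay below all of col, with a mean difference of -1.56 in the 4 lines.

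AT1G26420 encodes a berberine-bridge-like oxidoreductase, a family that oxidises indolic and cell wall derived compounds, and it stands next to AT1G26410 in gene order. Its mean difference was -1.50 in the 4 lines and -0.34 in T101D. CCOAMT, a caffeoyl-CoA methyltransferase of phenylpropanoid metabolism, had -1.48 in the 4 lines and -0.14 in T101D. The mean differences of the others were -1.17 for the glutathione transferase family gene AT5G44990, -1.07 for the alpha/beta hydrolase AT2G39400, -1.03 for the class 3 lipase AT5G24210 and -0.9995 for AT3G02100. AT3G02100 is a UDP-glycosyltransferase that the annotation lists by locus code.

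A pair of members is linked to nitrate. AT3G53960 belongs to the NPF transporter family, of which NRT1.1 is a member, and gave 49.7, 91.0 and 82.3 in chl1-5, 69.9, 66.4 and 70.0 in chl1-9, 64.7, 78.7 and 65.7 in chl1-12, 61.5, 53.5 and 41.7 in T101A, and 154, 86.4 and 99.8 in T101D, against 142, 149 and 218 in col. AT1G49500 is a gene known to respond to nitrate supply, and gave 874, 1139.6 and 943 in chl1-5, 1028, 1276 and 1256 in chl1-9, 682, 965 and 931 in chl1-12, 1572, 1055 and 1255 in T101A, and 2230.1, 1623 and 1795 in T101D, against 1654, 2584 and 2997 in col. Both had all 12 arrays of the 4 lines below col, as 1.88% of all probe sets did, with mean differences of -1.17 and -1.13. AT3G53960 was not lowest in chl1-9, with -1.05 in chl1-5, -1.11 in chl1-9, -1.10 in chl1-12 and -1.43 in T101A.

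Of the 10 other named members, AT3G17520 is a late embryogenesis abundant protein gene, with a mean difference of -0.95, and AT1G18550 a kinesin gene, with -0.86. In 5 of the 10 all 12 arrays of the 4 lines lay below col, against 1.88% of all probe sets. AT3G55790 showed 48.6, 12.0 and 1.81 in chl1-5, 0.782, 0.973 and 15.8 in chl1-9, 35.7, 0.841 and 11.4 in chl1-12, 47.5, 55.8 and 15.02 in T101A, and 141, 114 and 24.4 in T101D, against 147, 174 and 61.0 in col. The mean difference of AT3G55790 in the 4 lines was -2.08, and its chl1-9 arrays were under 16. T101D replicate 3 stood below the other T101D arrays and within the range of the 4 lines. AT3G18250 showed 136, 240.0 and 197 in chl1-5, 104, 86.8 and 145 in chl1-9, 193, 113 and 220.4 in chl1-12, 166, 247 and 159 in T101A, and 352, 467 and 331 in T101D, against 507, 647 and 722 in col. For AT3G18250 the order of the 4 lines, T101D and col held without overlap, and its mean difference in the 4 lines was -1.85.

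AT3G48640 had 44.8, 13.0 and 20.9 in chl1-5, 2.94, 1.05 and 20.5 in chl1-9, 36.6, 30.2 and 37.2 in chl1-12, 17.7, 41.6 and 11.8 in T101A, and 126, 134 and 57.3 in T101D, against 114, 94.8 and 87.4 in col. T101D and col overlapped for AT3G48640, and all 12 arrays of the 4 lines lay below both, with a mean difference of -1.65. AT4G04990 had 121, 78.6 and 89.8 in chl1-5, 71.0, 50.5 and 121 in chl1-9, 127, 112 and 157 in chl1-12, 265, 175 and 143 in T101A, and 492, 365 and 247 in T101D, against 321, 452 and 378 in col. Its mean difference in the 4 lines was -1.58, T101A was the nearest to col of these lines, at -0.96, and T101D replicate 3 lay below T101A replicate 1. The mean differences of the remaining members were -1.30 for AT1G13310, -1.14 for AT5G62330, -1.04 for AT1G36640 and -0.89 for AT4G30230.

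The 42 members with no gene listed had mean differences of -4.17 to -0.74 with a median of -1.41, against -3.22 to -0.77 with a median of -1.19 for the 40 named members. The 3 members shared by several genes had mean differences of -1.74 for the defensin-like genes AT5G33355 and AT3G59930, -1.40 for the berberine-bridge-like genes AT1G30730 and AT1G30720, and -1.34 for the methyltransferase genes PXMT1 and AT1G66690. In these 3 the signal of the genes named cannot be separated.

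The rule set no condition on the differences among the 4 lines, but it used the mean of each of these lines. Counts and shares of members below are therefore not free of the choice, while the whole of the probe sets was not chosen. The differences were tested with limma over all 22746 probe sets, with a call at a Benjamini-Hochberg adjusted p under 0.05. The members were lower in chl1-9 than in chl1-5 in 66 of 85 cases, with a median of -0.31, where the median of all probe sets was 0.02. Of the members 3 were called lower in chl1-9 than in chl1-5 (3.53%), where 0.171% of all probe sets were called lower and 0.237% in either direction. T101A minus chl1-9 was positive in 75 of 85 members with a median of 0.59, against -0.02 over all probe sets, and 3 members were called higher in T101A (3.53%), where 0.431% of all probe sets were called higher and 0.611% in either direction. The difference chl1-12 minus chl1-9 was positive in 61 members with a median of 0.25, against -0.03, and 1 member was called (1.18%), where 0.136% of all probe sets were called higher and 0.176% in either direction.

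The other comparisons gave 0 called members by limma. T101A minus chl1-5 was positive in 66 of 85 members with a median of 0.24, against 0.0076 over all probe sets, and 5 members had an unadjusted p under 0.05. T101A minus chl1-12 was positive in 74 members with a median of 0.25, against 0.006, and 3 members had an unadjusted p under 0.05. For chl1-12 minus chl1-5, 38 members were positive and the median was -0.05, against -0.0018, with 3 members at an unadjusted p under 0.05. Calls in either direction over all probe sets were 0.0044%, 0.044% and 0.0396% in these comparisons. The share of members at an unadjusted p under 0.05 was 5.88%, 3.53% and 3.53%, against 8.41%, 5.13% and 4.12% of all probe sets. In the comparisons with chl1-9 that share was higher, at 28.2% for chl1-9 minus chl1-5, 28.2% for chl1-12 minus chl1-9 and 38.8% for T101A minus chl1-9, against 11.6%, 10.9% and 14.3% of all probe sets. The comparisons share their lines, so they are not independent of each other.

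**Figure D5:**
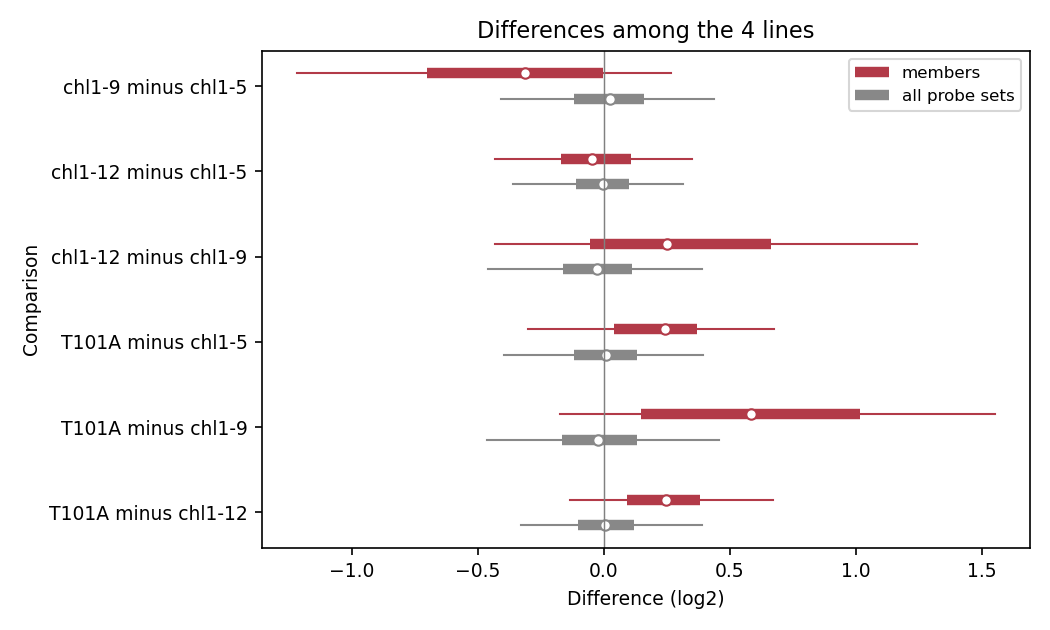
For each of the 6 comparisons among the 4 lines, the white point is the median difference (log2), the thick bar runs between the quartiles and the thin line from the 5th to the 95th percentile, in red for the 85 members and in grey for all 22746 probe sets. The member medians are -0.31, 0.25 and 0.59 in the comparisons that hold chl1-9, 0.24 and 0.25 for T101A minus chl1-5 and T101A minus chl1-12, and -0.05 for chl1-12 minus chl1-5.

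The called members were AT2G15220 and a pair of unnamed probe sets, with chl1-9 as the low line each time. AT2G15220 averaged 1009 ± 152 in T101A, 828 ± 126 in chl1-12 and 329.5 ± 127 in chl1-9, against 763 ± 34.3 in chl1-5 (SD, n = 3 each). Its T101A minus chl1-9 was 1.62 ± 0.24 (log2, SE) with a limma adjusted p of 0.00602, and its chl1-12 minus chl1-9 was 1.34 with a limma adjusted p of 0.0335. Its chl1-9 minus chl1-5 was -1.23 ± 0.24 with a limma adjusted p of 0.0479. In all 3 comparisons every chl1-9 array was the lower one. Of 27 alternative settings, the call against T101A was lost in 1, the one fitted on the arrays of those lines alone, that against chl1-12 in 13 and that against chl1-5 in 18.

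The first unnamed member had intensities of 1476, 1729.8 and 1359 in T101A and of 611, 905 and 960.3 in chl1-9, against 1621, 1618 and 1557 in chl1-5. chl1-9 minus chl1-5 was -0.97 ± 0.17 (adjusted p 0.0286, limma), and T101A minus chl1-9 was 0.89 (adjusted p 0.0337, limma). The second unnamed member had 895, 1204 and 1257 in T101A and 519.9, 807 and 631 in chl1-9, against 977, 1130.4 and 1203 in chl1-5. Its chl1-9 minus chl1-5 was -0.76 ± 0.15 (adjusted p 0.0479, limma) and its T101A minus chl1-9 was 0.77 (adjusted p 0.0325, limma). Each chl1-9 array lay below each array of the other lines compared for both members. Of the 27 alternative settings, the first member lost its call against chl1-5 in 5 and that against T101A in 6, and the second lost them in 20 and 5. The number of called members was 6 without chl1-9 replicate 3 and between 2 and 4 without any other single array, and it was 0 when each pair of lines was fitted on its own arrays.

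Genes of the same families and pathways outside the member set were tested against col. Against col, limma called 2.18% of all probe sets in chl1-5, 3.39% in chl1-9, 1.5% in chl1-12 and 2.23% in T101A, with 0.255% in T101D. Of 37 measured genes of the pathway and family lists that were no members, 3 were called in chl1-5, 5 in chl1-9, 3 in chl1-12 and 3 in T101A, with 0 in T101D. These comparisons share the col arrays, and the 14 calls became 9, 8 and 7 without col replicate 1, 2 and 3. The lists were chosen with earlier results of these data known. Nothing is therefore read from their counts beside the shares of all probe sets.

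The nitrate response list had 6 of 33 genes measured, and 3 of them passed in at least 1 line. AT3G25790 and AT1G25550 encode HHO repressors of nitrogen starvation responses. AT3G25790 (HHO1) differed from col by -0.76 ± 0.15 (SE) in chl1-5, -0.57 ± 0.15 in chl1-9 and -0.77 ± 0.15 in chl1-12, with limma adjusted p of 0.0133, 0.0492 and 0.015, while it gave -0.33 in T101A, with 0.21 in T101D, both not called. AT1G25550 (HHO3) fell in chl1-5 (-0.47, limma adjusted p 0.0238) and chl1-12 (-0.59, 0.0063). It gave -0.36 in chl1-9 and -0.30 in T101A, with 0.07 in T101D, none of them called. AT5G41670, the pentose phosphate pathway dehydrogenase PGD3, rose by 0.72 in chl1-9 alone among the calls (limma adjusted p 0.00114). The HHO1 call in chl1-9 was lost in 19 of 27 alternative settings.

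The defence signalling list had 3 of 26 genes measured and the WRKY transcription factors, regulators of defence genes, 7 of 72, with 0 called in each line by limma. Iron uptake and coumarins had 3 of 13 measured and 0 called, and of indolic defence metabolism 0 of 15 were measured. The low oxygen list had 3 of 13 measured, of which AT5G66985 rose in the 4 lines, by 0.97 in chl1-5, 1.12 in chl1-9, 1.01 in chl1-12 and 0.93 in T101A (limma adjusted p 0.0233, 0.00651, 0.0225 and 0.0289), and gave 0.61 in T101D, not called. The jacalin-related lectins JAL22 and JAL33 rose in chl1-9, by 1.0 and 0.55, and in T101A, by 0.87 and 0.42, with limma adjusted p of 0.00344, 0.00651, 0.0135 and 0.0449, and the JAL33 call in T101A was lost in 14 of 27 alternative settings. These lists are too thinly measured to describe their pathways.

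Relatives of the members were listed by family after the members were known. Of all probe sets limma called 0.822% lower and 1.35% higher in chl1-5, 1.64% lower and 1.75% higher in chl1-9, 0.558% lower and 0.941% higher in chl1-12, 0.712% lower and 1.52% higher in T101A, and 0.0835% lower and 0.171% higher in T101D. The 21 other berberine-bridge-like probe sets had 3 called lower and 1 higher in chl1-5, 8 lower in chl1-9, 3 lower in chl1-12 and 3 lower in T101A by limma. The 3 lower in chl1-5, chl1-12 and T101A were AT1G26380, AT1G26390 and AT1G26410. They differed from col by -2.20, -3.14 and -1.90 in T101A and by -0.49, -0.94 and -0.62 in T101D. These 3 meet the members' rule and were left out by name only. Their low calls therefore use the values that the rule used, and nothing is read from them. No other berberine-bridge-like probe set was called lower in chl1-5, chl1-12 or T101A. The others lower in chl1-9 were AT1G30700 (-1.13), AT2G34810 (-0.98), AT4G20830 (-0.67), AT4G20860 (-0.59) and AT5G44380 (-0.37), of which the calls of AT2G34810 and AT5G44380 were lost in 21 and 15 of 27 alternative settings, and the 1 higher in chl1-5 was AT4G20820 (0.79). Among 10 other germin-like genes, AT1G18980 rose in chl1-5 (0.52), chl1-12 (0.52) and T101A (0.64), and AT3G10080 fell in chl1-9 (-0.67). The AT1G18980 call in chl1-12 was lost in 16 of 27 alternative settings.

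Of 8 other chitinases, AT1G02360 and AT3G47540 fell in chl1-9 (-0.61 and -0.38). Of 7 other DUF642 genes, AT4G32460 fell in chl1-9 (-0.57). Of 11 other CrRLK1L kinases, FER, which is FERONIA, rose in chl1-9 by 0.31 and AT5G39020 rose in T101A by 0.83, and these calls were lost in 19 and 16 of 27 alternative settings. Of 21 other calmodulin-like genes, AT3G03000 rose in chl1-5 (0.65) and T101A (0.60), and AT1G18210 rose in chl1-9 (0.33). No gene was called by limma among 17 other thaumatin-like genes, 13 other tropinone reductase-like genes or 2 other protease inhibitors of the potato type. The third PIP gene AT4G37290 gave -0.40 in chl1-5, -1.09 in chl1-9, -0.34 in chl1-12 and -0.44 in T101A, with 0.05 in T101D, not called in any line.

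The named members were spread over the genome, with 8 genes on chromosome 1, 7 on chromosome 2, 10 on chromosome 3, 6 on chromosome 4 and 9 on chromosome 5. The shares of 20%, 17.5%, 25%, 15% and 22.5% compare with 25.5%, 16.3%, 20.3%, 14.5% and 22.3% of all probe sets with a single gene. Within 3 genes on either side of a named member, 117 other genes were measured. Their median differences from col lay between -0.10 and -0.05 in the 5 lines. Called lower by limma were 3 neighbours in chl1-5 (2.56%), 7 in chl1-9 (5.98%), 3 in chl1-12 (2.56%) and 5 in T101A (4.27%), with 3 in T101D (2.56%), and called higher were 3 in chl1-9 and 1 in T101A. The shares of all probe sets called lower, given above, were smaller in each line. In each of the 4 lines AT1G26390 and AT1G26410 account for 2 of the lower neighbours, and both meet the members' rule and were left out by name only. Together with AT2G15260, which was called lower in all 5 lines, they are the 3 lower neighbours in chl1-5 and in chl1-12. AT5G38900, the gene next to AT5G38910, fell in chl1-9 (-1.32) and gave 0.09 in T101D, not called.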

How the data were processed

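Total RNA from roots was hybridised to 18 Affymetrix arrays, 3 per genotype. Per the labels' protocols, RNA was extracted with TRIzol and labelled with a 3' IVT Express kit. The authors deposited 1 table of intensity values on a linear scale for 22810 probe sets. For the software, the background correction and the build, the sources used here state nothing. In the deposited values each array had a mean of 500 once 2% of probe sets at either end was set aside, which makes differences relative to that mean, and a change in total messenger RNA per root is not seen. Between 16.5% and 19.5% of probe sets of an array lay under 16.

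The 64 control probe sets were left out. Values were transformed as log2(intensity + 16), which understates the change of dim probe sets, and were not normalized again. All 18 arrays entered 1 linear model in limma 3.58.1 (R 4.3.3) that had a coefficient for every genotype, and each comparison was adjusted on its own over 22746 probe sets by the Benjamini-Hochberg method. Every adjusted p comes from limma. Arrays have no depth, and their number limits the precision. Summaries used pandas 2.3.3 and numpy 2.4.6 under Python 3.11.15, and figures used matplotlib 3.10.9.

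Groups and replicate numbers came from the sample titles. Arrays sharing a replicate number deviated together only weakly (correlations of deviations of 0.0105 to 0.142 over 33 pairs, of which 5 were over 0.1), so the numbers were not used as pairs. The members and lists were chosen with earlier results of these data known. The lists of family relatives and the role groups were written after the members were seen. Every member with a single gene is named with its mean difference. Array values are given for the 12 named members with the largest mean fall over the 4 lines, for members called among the 4 lines, and for members that share a family or a neighbourhood, to which the nitrate-linked pair was added after its values were seen. List genes are named where they passed in at least 1 line. Genes were named from the platform annotation, with 1 gene for 13513 probe sets, several for 503 and none for 8730, and 13436 of the first were matched to RefSeq TAIR10.1 for symbols and gene order. NRT1.1 itself is not analysed here. The alternatives were other offsets, quantile normalization, median centring, filters on dim probe sets, other distances, a replicate block, an intensity trend, fits on the arrays of 2 genotypes, an F test and leaving out each array.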

Additional observations from a re-analysis of the deposited data

Results flagged for a closer look

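Differences between lines that were tested directly stood out for 3 members, each of them in comparisons with chl1-9. AT2G15220, a plant basic secretory protein gene, lay lower in chl1-9 than in chl1-5 (-1.23) and higher than chl1-9 in chl1-12 (1.34) and T101A (1.62) on the log2 scale. The first unnamed member lay lower in chl1-9 than in chl1-5 (-0.97) and higher in T101A than in chl1-9 (0.89). The second unnamed member lay lower in chl1-9 than in chl1-5 (-0.76) and higher in T101A than in chl1-9 (0.77). These differences passed a limma adjusted p under 0.05, and every chl1-9 array was below every array of the line it was set against. The calls of the second unnamed member and of AT2G15220 against chl1-5 were lost in 20 and 18 of 27 alternative settings. That of AT2G15220 against chl1-12 was lost in 13. No member was called when each pair of lines was fitted on its own arrays. The rule used the mean of each of these lines, so which members were tested is not free of the choice.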

How the results depend on the processing

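The rule found 166 probe sets with an offset of 1, 31 above the median level and 43 with a distance of 1 from col, in place of 85, and 78 to 102 when 1 array was left out, of which 68 to 85 were members. It found 88 when no gene was left out by name, a setting chosen after seeing the data. The number of members called among the 4 lines, 3 as reported, was 7 above the lowest quartile of mean level, 10 above the median, 9 with a replicate block, 8 with an intensity trend, 0 with only the arrays of the 2 genotypes compared, 1 by a moderated F test over the 4 lines, and 2 to 6 when 1 array was left out, with 6 without chl1-9 replicate 3. Replicate numbers were not taken as pairs, and with the block the calls of AT2G15220 in chl1-9 against chl1-5 and chl1-12 were lost. The 14 calls of list genes against col became 22 above the median level, 17 with the replicate block, 2 with only the arrays of the 2 genotypes compared, and 7 to 17 when 1 array was left out. The 51 single calls described, those of the unnamed members included, kept their direction under every alternative run. Of 1367 checks of a call under an alternative, 1063 were still past the threshold and 304 were not, and the cause was not tested. The planned search of promoter motifs was not run. With 24 members under an intensity of 16 in at least 1 line, signal over background limits how low those levels can be read.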
